A study of Mus musculus with 6 samples.

Results

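The 30 genes described here carry glucose into the cell (2 members), break it down to pyruvate and lactate (15 enzymes), carry lactate out (2) or belong to the response to low oxygen (11). They were chosen by name, and all 30 were found among the 27179 Entrez gene IDs of the count table. All 30 also passed edgeR's filter on low counts, as did 12967 genes in all. The cells were mouse group 2 innate lymphoid cells (ILC2s), tissue lymphocytes that release type 2 cytokines without an antigen receptor. They had been sorted through a gate negative or a gate positive for Chat, the enzyme that makes acetylcholine, with 3 samples per gate, numbered 1 to 3 in each. Not given in the sources used here: the strain and age of the mice, the tissue, any treatment, and how the gate for Chat was set. Whether the 3 samples of a gate are 3 animals is also not stated, and the tests below therefore read the spread of these libraries, part or all of which may be technical.

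Glycolysis splits glucose into pyruvate with a small gain of ATP, and lactate dehydrogenase then turns pyruvate into lactate, which leaves the cell through monocarboxylate transporters. When oxygen is scarce, the prolyl hydroxylases stop marking the transcription factor HIF for destruction, and HIF raises most genes of this pathway together with genes for mitophagy, blood vessel growth and collagen hydroxylation. Activated lymphocytes use the same genes with oxygen present, because growth and cytokine production draw on glycolysis.

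Libraries held 37154269 to 50361306 counts. Chat, the sorted gene, stood at 16.6, 26.5 and 17.5 CPM (counts relative to library size, scaled with TMM factors) in Chat negative samples 1, 2 and 3, and at 188, 169 and 205 CPM in Chat positive samples 1, 2 and 3. It was higher in every Chat positive library, as the gate labels say. Each of 12 ILC2 markers, such as Gata3 and Il1rl1, had at least 10 counts in every library. Of the lists for other cells, 4 of 6 B cell, 4 of 6 NK cell and ILC1, 5 of 6 mast cell and basophil and 3 of 8 T cell markers had under 10 counts in every library. In such bulk samples, fewer cells of a type and less RNA per cell cannot be told apart. The 3 libraries of a gate were not alike for these genes: sample 2 of both gates stood apart for many of them. Its values are given beside some gate results, while others are given as a mean or log2 change only. The differences between sample numbers follow the gate results.

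Per kb of transcript, the most abundant members were enzymes of the middle and end of glycolysis. Averaged over 6 libraries, the level was 4243 CPM per kb for Aldoa, an aldolase that splits fructose bisphosphate, 3553 for Ldha, a lactate dehydrogenase chain, and 1805 for Pkm, a pyruvate kinase. Tpi1 followed at 888 CPM per kb, Eno1 at 560, Gpi1 at 430 and Pfkp at 398. Among isozymes, Hk1 stood at 186 CPM per kb against 12.9 for Hk2, and of the phosphofructokinases Pfkp stood above Pfkl at 179 and Pfkm at 7.90. Slc2a1 and Slc2a3, the main glucose transporters, lay close together at 142 and 150 CPM per kb. Of the lactate transporters, Slc16a3, known for its role in export, stood at 216 CPM per kb and Slc16a1 at 29.5. The most abundant hypoxia-response members per kb were Bnip3 at 335 and Hif1a at 313, and the least abundant was the oxygen sensor Egln1 at 12.0.

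Gapdh, whose enzyme works between Tpi1 and Pgk1, stood at only 142 CPM per kb, Pgk1 at 49.9 and Pgam1 at 19.0, below the 888 of Tpi1 and the 560 of Eno1 on either side of them. The 3 genes have near-identical relatives in the annotation, as do Tpi1 and Eno1. The Gapdh transcript matched 177 other annotated genes, 166 of them pseudogenes, at 90% identity or more over at least 300 bases. Pgk1 matched 4 and Pgam1 matched 3. Of the more abundant members, Ldha matched 13, Pkm 8, Aldoa 6, Eno1 6 and Tpi1 2. How reads shared by such copies were counted is not given in the sources used here, so the levels of these members are uncertain, and the part of the copies in the low values was not tested. In all, 13 members had at least 1 such relative and 17 had none.

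**Figure D1:**
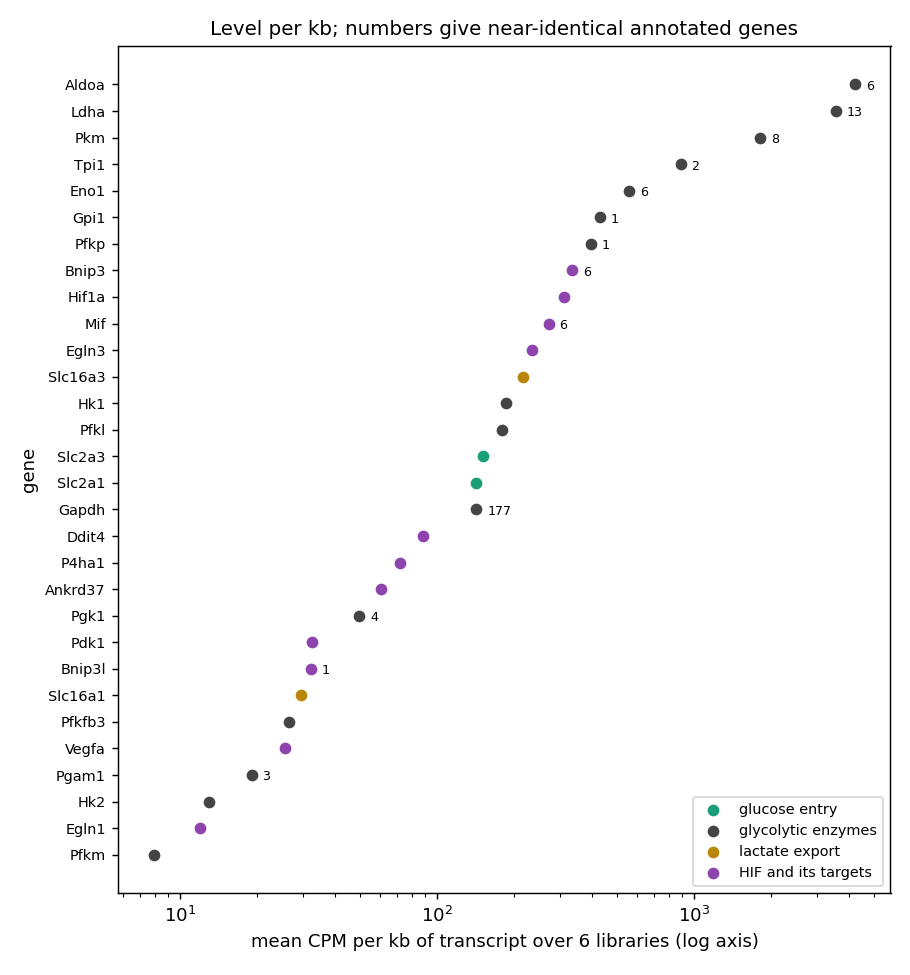
Mean level of each member over 6 libraries in CPM per kb of transcript (log axis), ordered from high to low and coloured by step. The figure beside a point is the number of other annotated genes that match its transcript; Aldoa, Ldha and Pkm lie highest, and Gapdh, with 177 relatives, lies at 142.

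Promoters are shown for 5 members that mark the contrast between sample numbers described below: Egln3 and Bnip3 were lower in sample 2 of both gates, and Ldha, Slc16a1 and Tpi1 were higher. Each line runs from 250 bases before to 50 bases after a RefSeq start site on GRCm38.p6, the assembly mm10 is made from. Capitals mark the core of the HIF binding motif, ACGTG or GCGTG, on either strand. CACGTG holds ACGTG on both strands and was counted on each.
Egln3 promoter, chr12:54203825-54204124, minus strand: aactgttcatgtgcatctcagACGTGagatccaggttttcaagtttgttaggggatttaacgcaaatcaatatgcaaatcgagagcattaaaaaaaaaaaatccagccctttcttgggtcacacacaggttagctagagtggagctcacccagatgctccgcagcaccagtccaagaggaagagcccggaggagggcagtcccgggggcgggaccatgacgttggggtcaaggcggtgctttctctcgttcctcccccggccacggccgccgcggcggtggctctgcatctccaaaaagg
Bnip3 promoter, chr7:138909457-138909756, minus strand: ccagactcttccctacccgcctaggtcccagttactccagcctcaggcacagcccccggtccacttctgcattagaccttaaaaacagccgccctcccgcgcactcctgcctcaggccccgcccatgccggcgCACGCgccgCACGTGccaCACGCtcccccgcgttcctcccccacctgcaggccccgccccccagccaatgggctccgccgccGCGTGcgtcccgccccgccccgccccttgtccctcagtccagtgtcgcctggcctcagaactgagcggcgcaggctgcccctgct
Ldha promoter, chr7:46845554-46845853, plus strand: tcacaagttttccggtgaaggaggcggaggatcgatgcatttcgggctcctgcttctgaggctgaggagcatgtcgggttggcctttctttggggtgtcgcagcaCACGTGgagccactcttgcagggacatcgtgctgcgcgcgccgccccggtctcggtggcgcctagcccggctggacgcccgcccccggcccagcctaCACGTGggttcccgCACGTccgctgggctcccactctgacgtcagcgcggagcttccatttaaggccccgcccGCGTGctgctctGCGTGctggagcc
Slc16a1 promoter, chr3:104638414-104638713, plus strand: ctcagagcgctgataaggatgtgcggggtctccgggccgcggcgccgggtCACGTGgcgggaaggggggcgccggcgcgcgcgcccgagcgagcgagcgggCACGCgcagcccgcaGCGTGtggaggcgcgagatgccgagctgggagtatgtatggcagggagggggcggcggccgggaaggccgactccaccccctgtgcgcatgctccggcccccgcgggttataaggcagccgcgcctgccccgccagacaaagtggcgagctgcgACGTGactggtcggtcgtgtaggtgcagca
Tpi1 promoter, chr6:124814109-124814408, minus strand: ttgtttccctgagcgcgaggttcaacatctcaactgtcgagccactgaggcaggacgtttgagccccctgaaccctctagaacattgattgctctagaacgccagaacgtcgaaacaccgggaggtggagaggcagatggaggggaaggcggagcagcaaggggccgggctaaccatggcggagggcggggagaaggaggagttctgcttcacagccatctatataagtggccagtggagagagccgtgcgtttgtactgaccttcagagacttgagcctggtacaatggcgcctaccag

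The Ldha promoter held 7 matches, those of Slc16a1 and Bnip3 held 5 each, that of Egln3 held 1 and that of Tpi1 held 0. These 5 promoters were picked after the contrast was seen and do not represent the members: a second Ldha promoter held 2 matches, the Vegfa promoters held 0 and 2, those of Pfkfb3 1 and 4, and those of Hk1, which did not differ by number, 0 and 5. Of the 30 members, 28 had a promoter in the RefSeq table, and 26 of these had a match in at least 1 of their promoters. By promoter, 33 of 41 member promoters (80.5%) held ACGTG or GCGTG, against 43.8% of all 32817 promoters of the same length. For ACGTG alone the shares were 61% and 19.6%. Some of the 41 overlap within a gene, as for Eno1, Aldoa and Pfkm, so the same match can count more than once. A share per gene over all genes was not computed, and genes with several promoters have more places for a match. A match describes the letters only.

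The gates were compared to see whether ILC2s sorted as Chat positive differ in this pathway from those sorted as Chat negative. No member differed past the threshold: 0 of 30 had an adjusted p under 5% in edgeR's quasi-likelihood test, where 0.00771% of all genes tested were called. At an unadjusted p under 0.05, edgeR had 1 member, DESeq2 had 2 and limma-voom had 1, where the shares of all genes tested were 2.43%, 3.44% and 2.59%. Without a term for the sample number, neither DESeq2 nor limma-voom called a member after adjustment; with it, DESeq2 called 4, described below. Log2 changes, Chat positive minus Chat negative, ran from -0.37 to 0.18 with a median of -0.11 over the members, beside a median of 0.004 over all genes. They lay below 0 for 23 of 30 members, where 49.1% of all genes did. Among genes with a mean of at least 20 CPM, that share was 51.3%.

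**Figure D2:**
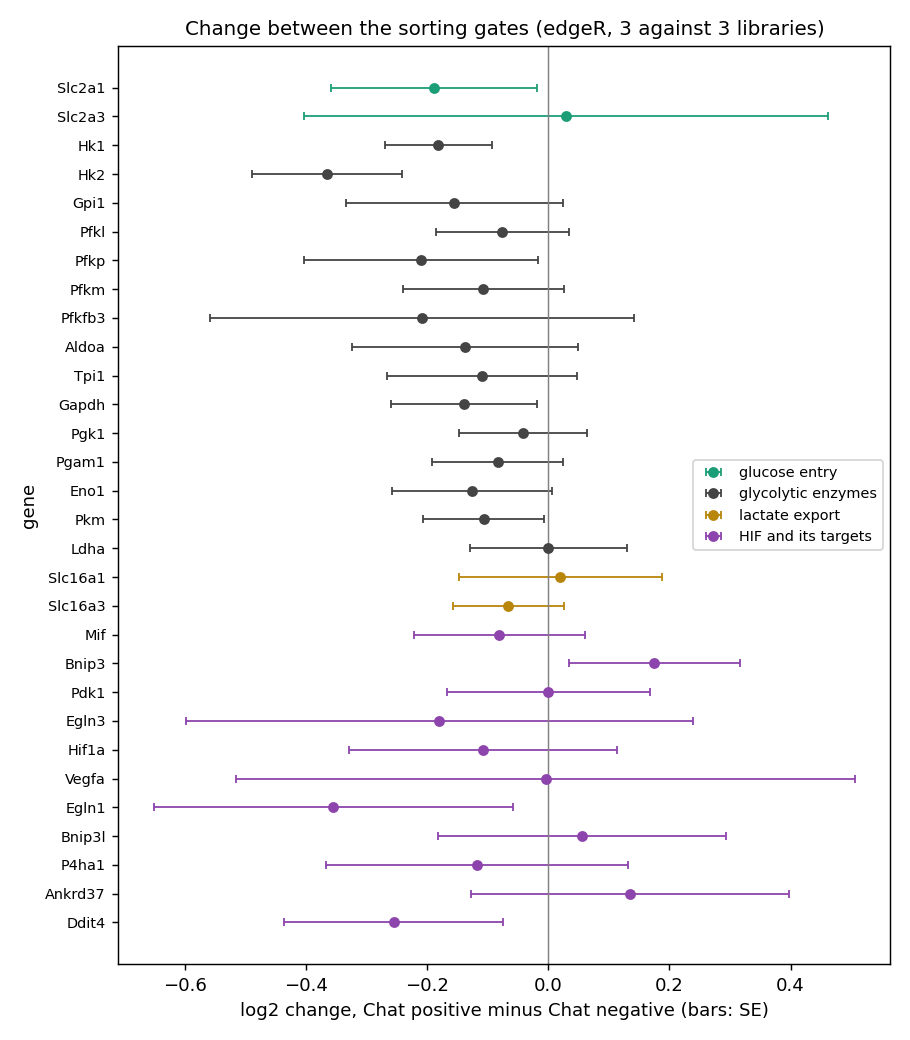
Log2 change of each member between the gates (horizontal axis, Chat positive minus Chat negative) with its standard error, from edgeR on 3 against 3 libraries. Of the 15 enzymes, 14 lie below 0, and the bars of most members cross 0.

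The hexokinases, which trap glucose in the cell as its phosphate, stood lower in Chat positive libraries without passing the test. Hk2, the inducible hexokinase that HIF raises, stood at 86.6, 71.1 and 83.4 CPM in Chat negative samples 1, 2 and 3, and at 58.4, 59.9 and 68.9 CPM in Chat positive samples 1, 2 and 3. Each Chat positive library was below each Chat negative one. The log2 change was -0.37 (SE 0.12), and edgeR without the sample number gave an unadjusted p of 0.0215 that became 1 after adjustment (DESeq2 with the sample number as a block, adjusted p = 0.00945). Hk1, the hexokinase most cells keep on, stood at 876, 846 and 814 CPM in Chat negative samples and at 743, 748 and 746 CPM in Chat positive samples. Its libraries did not overlap either, and the log2 change was -0.18 (SE 0.09, edgeR adjusted p = 1, DESeq2 with the block adjusted p = 0.0325).

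Non-overlap was also seen at the last step to pyruvate and at the mutase step. Pkm stood at 4590, 4598 and 4470 CPM in Chat negative samples 1 to 3 and at 4329, 4296 and 4057 CPM in Chat positive samples, a log2 change of -0.11 (SE 0.10). Pgam1 stood at 34.2 to 35.2 CPM and at 31.4 to 34.1 CPM, a log2 change of -0.08 (SE 0.11). Hk1, Hk2, Pkm and Pgam1 were the only members whose gates did not overlap, 4 of 30, all lower in Chat positive cells. Over all genes tested, 8.14% did not overlap, with 3.61% lower and 4.53% higher in Chat positive cells. Summed over the 15 enzymes, the level was 24890 to 26430 CPM in Chat negative and 23150 to 24850 CPM in Chat positive libraries. Marker lists of other cells were measured beside them. The NK cell and ILC1 list summed to 74.5 to 93.3 and 52.0 to 69.2 CPM, nearly all of it the integrin gene Itga2, with the other 5 markers under 1 CPM. The B cell list, nearly all Ighm and Cd79b, ran from 344 to 427 and from 288 to 361 CPM, the epithelial list, nearly all Epcam, from 36.8 to 87.8 and from 34.0 to 57.2 CPM, and the mast cell and basophil list, nearly all Mcpt8, from 30.8 to 203 and from 24.9 to 147 CPM. Each of these 4 sums was lower in the Chat positive library of every number, as was that of the myeloid list, mostly Cd68, at 9.27 to 25.5 and 9.07 to 25.1 CPM. The stromal and endothelial list went the other way for every number, at 47.41 to 77.87 and 57.96 to 96.48 CPM. The T cell list was mixed, at 25.25 to 45.53 and 20.45 to 45.28 CPM, and was higher in the Chat positive library of number 3 only. The 12 ILC2 markers ran from 18770 to 21960 and from 20530 to 27410 CPM, higher in the Chat positive library of every number. The part of these markers in the enzyme values was not tested.

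Within sample numbers, the enzymes lay mostly one way. Of 15 enzymes, 11 were lower in the Chat positive library of all 3 numbers and 0 were higher in all 3. Over the 30 members these counts were 16 and 2, so that 18 of 30 kept 1 direction, where 39.6% of all genes tested did, 17.3% lower and 22.3% higher. Among genes with a mean of at least 20 CPM, the share lower for all 3 was 21.1%. The same-number differences were small: for Pfkp, the platelet-type phosphofructokinase, they were -0.25, -0.17 and -0.20 on the log2 scale for numbers 1, 2 and 3, and for Gpi1, the second enzyme of the pathway, -0.11, -0.12 and -0.23. For Aldoa they were -0.07, -0.12 and -0.22.

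With the sample number as a replicate block, edgeR again called 0 of 30 members, with adjusted p of at least 0.102, and 0.339% of all genes. At an unadjusted p under 0.05 this fit had 13 of 30 members, where 16.5% of all genes did. DESeq2 with the block called 4 members, all lower in Chat positive cells, where it called 3.56% of all genes and 2.12% as lower. They were Hk2 (log2 change -0.37, DESeq2 adjusted p = 0.00945), Pfkp (-0.21, 0.00616), Hk1 (-0.19, 0.0325) and the glucose transporter Slc2a1 (-0.19, 0.0423). Limma-voom with the block called 0 members, so these 4 calls rest on the choice of tool.

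Glucose entry gave a split between its members. Slc2a1, which encodes GLUT1, stood at 539, 397 and 549 CPM in Chat negative samples 1, 2 and 3, and at 485, 362 and 455 CPM in Chat positive samples. It was lower in the Chat positive library of each number, although the gates overlapped because sample 2 was low in both (log2 change -0.19, SE 0.17, edgeR adjusted p = 1, DESeq2 with the block adjusted p = 0.0423). Slc2a3, which encodes the high-affinity GLUT3, stood at 704, 306 and 759 CPM in Chat negative samples and at 686, 315 and 804 CPM in Chat positive samples. Its gate difference was 0.03 (SE 0.43), so the libraries of 1 gate differed far more than the gates did.

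The other enzymes did not pass edgeR's test between the gates. Ldha, which makes lactate, stood at 5826, 7198 and 6319 CPM in Chat negative samples and at 6072, 7007 and 6265 CPM in Chat positive samples, the same mean of 6448 CPM in both gates. Pfkfb3, which makes the activator of phosphofructokinase, had a log2 change of -0.21 (SE 0.35), with same-number differences of -0.25, -0.19 and -0.17. For Pfkl, Pfkm, Tpi1, Gapdh, Pgk1 and Eno1 the log2 changes ran from -0.14 (Gapdh) to -0.04 (Pgk1), with standard errors between 0.11 and 0.16. Lactate export was even between the gates: Slc16a1 averaged 130 ± 21.2 CPM in the negative gate and 132 ± 22.1 CPM in the positive gate, and Slc16a3 960 ± 33.1 and 917 ± 30.5 CPM (SD, n = 3 each).

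Hypoxia-response members did not share a direction between the gates, with 7 of 11 below 0 and 4 above. Bnip3, a mitophagy receptor that HIF raises, was higher in the Chat positive library of each number, at 541, 496 and 619 CPM in Chat negative samples 1, 2 and 3 and at 633, 532 and 706 CPM in Chat positive samples. The gates overlapped, and the log2 change was 0.18 (SE 0.14, edgeR adjusted p = 1). Ankrd37, a small ankyrin repeat protein and a known HIF target, was likewise higher for 3 of 3 numbers, with a log2 change of 0.13 (SE 0.26). Lower values in Chat positive cells were those of Egln1, at 48.4 ± 13.2 and 37.9 ± 12.3 CPM, and Ddit4, an inhibitor of mTOR signalling, at 169 ± 34.1 and 142 ± 20.5 CPM (SD, n = 3 each). Their log2 changes were -0.36 (SE 0.30) and -0.26 (SE 0.18). Egln1 was not lower for every number, with same-number differences of -0.565, -0.613 and 0.041 for numbers 1, 2 and 3. Ddit4, P4ha1 and Egln3 were lower in the Chat positive library of all 3 numbers, with a log2 change of -0.18 for Egln3. Hif1a, the oxygen-regulated HIF subunit, had a log2 change of -0.11 (SE 0.22), and Mif, a cytokine that HIF raises, one of -0.08 (SE 0.14). P4ha1, a collagen prolyl hydroxylase, had -0.12 (SE 0.25), and the mitophagy receptor Bnip3l had 0.06 (SE 0.24). Pdk1, which holds back pyruvate dehydrogenase, averaged 169 CPM in both gates, and Vegfa, a vessel growth factor, 88.5 and 88.3 CPM.

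The larger differences ran between sample numbers. Vegfa stood at 101, 39.7 and 125 CPM in Chat negative samples 1, 2 and 3, and at 102, 40.3 and 123 CPM in Chat positive samples 1, 2 and 3. Egln3, an oxygen sensor that is itself a HIF target, stood at 796, 340 and 857 CPM and at 720, 325 and 714 CPM. Pfkfb3 stood at 167, 81.7 and 161 CPM and at 140, 71.6 and 143 CPM. For each of these, and for Slc2a3, both libraries of number 2 were below the other 4. Vegfa hardly differed between the gates within a number, while Egln3 and Pfkfb3 were lower in the Chat positive library of each number. Relative to the mean of numbers 1 and 3, number 2 was lower by a log2 difference of -1.49 for Vegfa, -1.25 for Slc2a3, -1.21 for Egln3 and -0.99 for Pfkfb3.

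**Figure D3:**
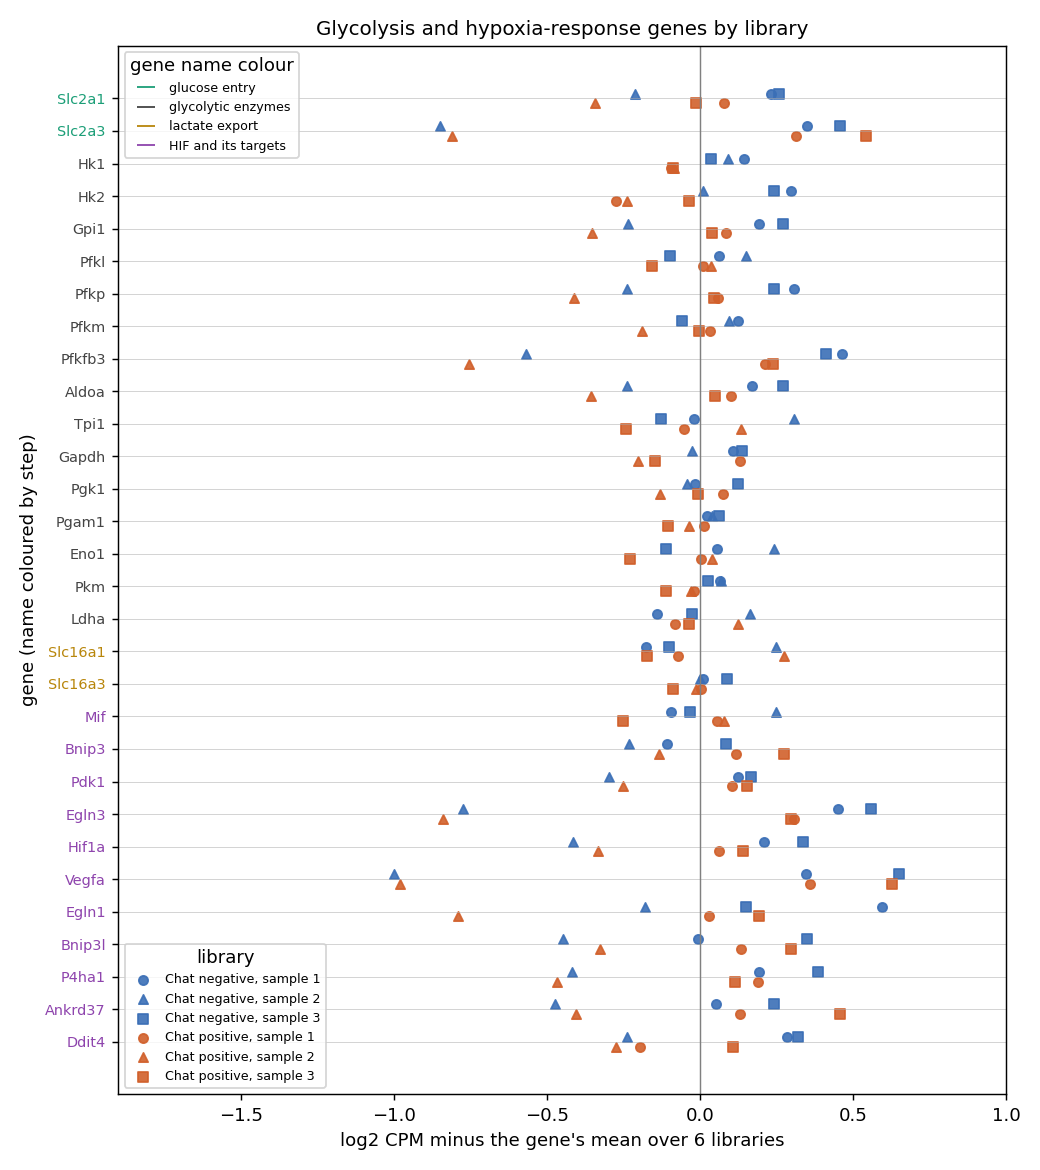
Log2 CPM of each member in each library minus the member's mean over the 6 libraries (horizontal axis), with gate by colour and sample number by marker. Triangles, sample number 2, lie far to the left for Slc2a3, Egln3, Vegfa and Pfkfb3 in both gates, and to the right for Tpi1, Ldha and Slc16a1.

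A test of the sample number was added after this pattern was seen, as a term beside the gate in edgeR's quasi-likelihood fit. It called 21 of 30 members (70%) at an adjusted p under 5%, where 32.5% of all 12967 genes and 43.7% of the 6869 genes with a mean of at least 20 CPM were called. Of the 21, 16 were lower and 5 higher in number 2 than in the mean of numbers 1 and 3. The labels do not say what a sample number stands for, and with 2 libraries per number the pattern rests on few samples. Without Chat negative 2 the test called 10 members, and 1368 of all genes, and without Chat positive 2 it called 15, and 1677 of all genes. Both libraries of number 2 were below the other 4 for 17 members and above them for 4, where 23.4% and 26.3% of all genes did so, and 23.7% and 32.6% of those with a mean of at least 20 CPM. The range between number means was wider than the gate difference for 25 of 30 members, a share near the 84.7% of all genes. These measures are unlike, since a range over 3 means of 2 libraries tends to exceed a difference between 2 means of 3 libraries. The count is therefore not a measure of a number effect.

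By step, the called members fell into separate directions. Both glucose transporters and 10 of 11 hypoxia-response members were called, and each of these 12 was lower in number 2. Besides those named, they were Hif1a, Pdk1, P4ha1, Bnip3, Bnip3l, Egln1, Ankrd37 and Ddit4, with log2 differences of -0.28 (Bnip3) to -0.73 (Egln1). Mif was the exception, at 175 and 155 CPM in number 2 against 124 to 153 CPM in the others (edgeR adjusted p = 0.0785). Among the enzymes, 8 of 15 were called (53.3%), beside 32.5% of all genes and 43.7% of those averaging at least 20 CPM. These 8 went 4 in each direction. Lower in number 2 were Gpi1 (-0.44), Pfkp (-0.49), Pfkfb3 and Aldoa (-0.45), with Aldoa at 5501 and 5080 CPM in number 2 against 6724 to 7847 CPM. Higher in number 2 than in the mean of numbers 1 and 3 were Tpi1 (0.33), Eno1 (0.21), Ldha (0.21) and Pfkl (0.14). For Eno1 and Pfkl the libraries of number 2 overlapped the others. Their means for numbers 1, 2 and 3 were 1153, 1248 and 1005 CPM for Eno1, and 683, 711 and 610 CPM for Pfkl. The test asks for any difference among the 3 numbers, so a call does not single out number 2.

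Tpi1, which interconverts the triose phosphates, stood at 1396, 1752 and 1296 CPM in Chat negative samples 1, 2 and 3 and at 1366, 1555 and 1197 CPM in Chat positive samples (edgeR adjusted p for the number = 0.00227). Slc16a1 stood at 115, 154 and 121 CPM and at 123, 157 and 115 CPM (edgeR adjusted p for the number = 0.00401). Both libraries of number 2 were above the other 4 for both genes. Hk1, Hk2, Pfkm, Gapdh, Pgk1, Pgam1, Pkm and Slc16a3 were not called, with log2 differences between -0.17 and 0.03.

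**Figure D4:**
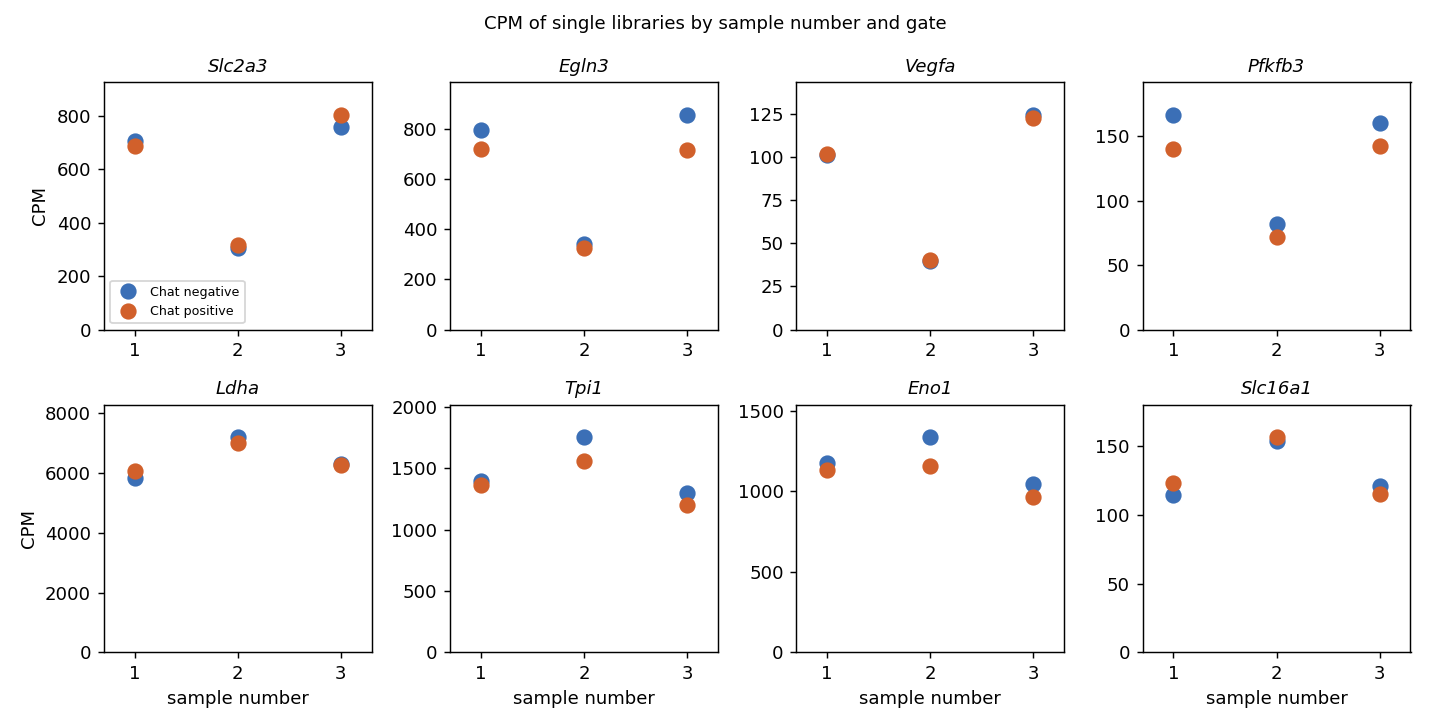
CPM (vertical axes, from 0) of 8 members in each library, by sample number, with gate by colour. In the upper row, Slc2a3, Egln3, Vegfa and Pfkfb3 are low in sample 2 of both gates. In the lower row, Ldha, Tpi1, Eno1 and Slc16a1 are highest in sample 2 of their gate.

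Summed over the 11 hypoxia-response members, the level was 2771 and 2825 CPM in the 2 libraries of number 2 and 3976 to 4570 CPM in the other 4. Summed over the 15 enzymes it was 24890 and 23150 CPM against 24020 to 26430 CPM, which overlap. Several marker lists also moved with the number. The summed level of the 6 mast cell and basophil markers was 30.8 and 24.9 CPM in number 2 and 124 to 203 CPM in the others. Nearly all of it was Mcpt8, while Cpa3, Mcpt4, Ms4a2 and Tpsb2 had 0 counts in every library. The 9 myeloid markers summed to 9.27 and 9.07 CPM against 21.9 to 25.5 CPM, the 5 epithelial markers to 36.8 and 34.0 CPM against 53.8 to 87.8 CPM, and the 8 T cell markers, mostly Cd3g, to 25.2 and 20.4 CPM against 34.8 to 45.5 CPM. The 6 B cell markers were higher in number 2, at 427 and 361 CPM against 288 to 346 CPM. The 12 ILC2 markers overlapped, at 18770 and 20530 CPM in number 2 against 19130 to 27410 CPM in the others. The part of these markers in the result was not tested.

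**Figure D5:**
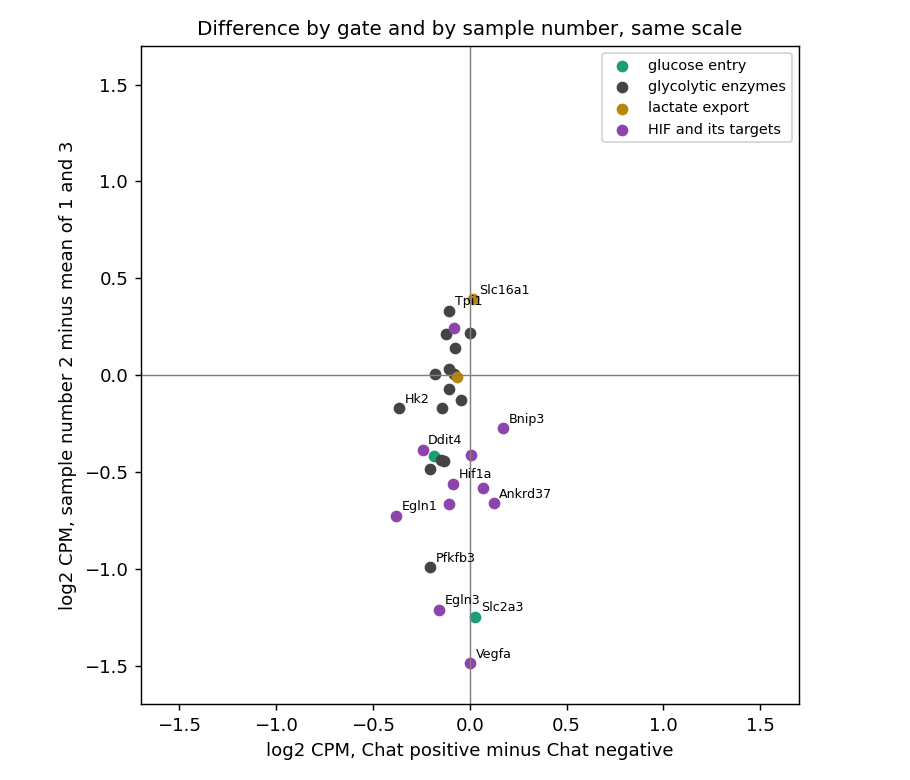
Each point is a member. The horizontal axis is the log2 CPM difference between the gates and the vertical axis the difference between sample number 2 and the mean of numbers 1 and 3, on the same scale; points spread down to -1.49 on the vertical axis and lie within 0.4 of 0 on the horizontal axis.

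The rest of the pathway was followed in 6 further lists with 109 tested genes. None of the 109 was called between the gates by edgeR without or with the block, DESeq2 without the block or limma-voom, while DESeq2 with the block called 9 (6 lower, 3 higher), where it called 3.56% of all genes. Lower were Bhlhe40, Stc2, Selenbp1, Ndrg1, Ep300 and H6pd, and higher were Bpgm, Wsb1 and Cul2. At an unadjusted p under 0.05, edgeR without the block had 3 of 109, a share near the 2.43% of all genes: H6pd, which feeds the pentose phosphate pathway in the endoplasmic reticulum, at 57.9 ± 3.01 and 48.2 ± 3.28 CPM, and the HIF coactivators Ep300, at 113 ± 5.59 and 89.2 ± 12.6 CPM, and Crebbp, at 25.6 ± 4.11 and 19.1 ± 2.82 CPM (SD, n = 3 each). The median log2 change of the lists ran from -0.13 for the pentose phosphate pathway to 0.09 for other glycolytic and gluconeogenic enzymes. The most abundant gene of 4 lists differed between the gates by less than its SE. Emb and Bsg, partner proteins of the lactate transporters, are both on the list for pyruvate and lactate handling. Emb, the higher, stood at 2413 ± 232 and 2440 ± 296 CPM, and Bsg at 1267 ± 172 and 1289 ± 178 CPM. Txnip, an inhibitor of glucose uptake, stood at 217 ± 92.5 and 191 ± 70.8 CPM, and the phosphoglucomutase Pgm1 at 370 ± 53.3 and 338 ± 51.3 CPM.

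Other genes of these lists, taken for their level or for the smallest p in their list, also missed the threshold in edgeR, although Bpgm and Wsb1 were among the 9 calls above. Log2 changes were -0.05 (SE 0.38) for the hexose transporter Slc2a8, 0.27 (SE 0.28) for Slc2a10, 0.17 (SE 0.24) for Arrdc4 and -0.03 (SE 0.18) for the aldolase Aldoc. Bpgm, which makes bisphosphoglycerate, had 0.51 (SE 0.31), and the lactate dehydrogenase chain Ldhb 0.39 (SE 0.31). Pyruvate dehydrogenase subunits pointed apart, with -0.13 (SE 0.09) for Pdha1 and 0.16 (SE 0.13) for Pdhb. In the HIF machinery, the elongin subunit Eloc had 0.18 (SE 0.11) and Cited2, which competes with HIF for its coactivators, -0.41 (SE 0.35). Among hypoxia-induced genes, the adenylate kinase Ak4 had -0.20 (SE 0.10), Wsb1 0.26 (SE 0.14) and Anxa2 -0.10 (SE 0.10).

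Between sample numbers, other hypoxia-induced genes mostly lay in the direction of the hypoxia-response members. They were read in the same libraries, from a list chosen with earlier results of these data known, so this is not independent support. Of 42 tested, 30 were called by the added edgeR test (71.4%), beside 32.5% of all genes and 43.7% of those averaging at least 20 CPM. Of the 30, 27 were lower and 3 higher in number 2 than in the mean of numbers 1 and 3. Ero1a, an oxidase of the endoplasmic reticulum, was the most abundant, at 8461, 5684 and 10030 CPM in Chat negative samples 1, 2 and 3 and at 8050, 5617 and 9901 CPM in Chat positive samples. Chosen after their values were seen, Ndrg1 stood at 135 and 128 CPM in number 2 against 244 to 315 CPM, and the pH-regulating Car9 at 6.25 and 7.01 CPM against 16.6 to 22.0 CPM. Tfrc, the transferrin receptor, lay the other way, with a log2 difference of 0.87. In the pentose phosphate pathway, 5 of 8 genes were called (62.5%, against the 32.5% of all genes) and all 5 were higher in number 2. Both libraries of number 2 were above the other 4 for 4 of the 8, where 26.3% of all genes did so. With 8 genes these shares rest on few. The 5 called genes included Tkt and Taldo1, at log2 differences of 0.29 and 0.30, and, chosen after its values were seen, G6pdx, the entry enzyme, at 221 and 212 CPM against 131 to 143 CPM. Of the HIF pathway machinery, 3 of 15 were called (20%), below the share over all genes. A high share of calls was not limited to hypoxia-induced genes. For pyruvate and lactate handling it was 11 of 16 (68.8%), 5 lower and 6 higher in number 2. For other hexose transporters and their regulators it was 4 of 6 (66.7%), and for other glycolytic and gluconeogenic enzymes 11 of 22 (50%). Over all 109 related genes, 64 were called (58.7%), 44 lower and 20 higher in number 2.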

How the data were processed

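Per the labels' protocols, a Clontech SMARTer kit for small inputs served to build the RNA-seq libraries. The authors deposited raw read counts per Entrez gene, 1 column per library, with no normalisation judging from whole numbers with different sums. CASAVA 1.8.2, STAR 2.3.0 and mm10 are named in the submitters' processing notes; how reads were counted, with which strand setting and with what treatment of multiply mapped reads, is not given in the sources used here. Symbols came from RefSeq (GRCm38.p6), which held 25275 of the 27179 IDs, and transcript lengths from the longest GENCODE M21 transcript paired with a curated RefSeq mRNA.

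Genes passing filterByExpr (12967) were scaled with TMM and tested with edgeR 4.0.16 (quasi-likelihood F-test, robust, two-sided, Benjamini-Hochberg over all genes, 5%) in R 4.3.3, without a block. SE is the one the F statistic implies. CPM are relative to the scaled library size. Alternatives used DESeq2 1.42.0 and limma-voom (limma 3.58.1), other scalings, filters and thresholds, the block and leaving out libraries; the test of sample number and the fit without both libraries of number 2 were added after seeing the data. The fits were also run on simulated data, with changes larger than that of any member between the gates. That run does not measure how well changes of the members' size are found. No library repeated another of its gate within sampling noise, since chi-square divided by its degrees of freedom was 31.5 or more. Same-numbered libraries deviated together from their gate means (correlations across genes of 0.29, 0.67 and 0.43), and were treated as pairs in the block. This comes from the data, not from a label. Chat negative 1 with Chat positive 3 had 0.30, and Chat negative 3 with Chat positive 1 had 0.20. Deviations from a gate mean sum to 0, so a shift shared by sample 2 alone also makes samples 1 and 3 correlate. The values for numbers 1 and 3 therefore do not by themselves show pairing.

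The members and lists were chosen with earlier results of these data known. Named are all members and, of each further list, any called between the gates in edgeR, the 2 most abundant tested genes and up to 2 with the smallest p; others are marked as chosen after their values were seen.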

Additional observations from a re-analysis of the deposited data

How the results depend on the processing

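No member was called between the gates under any scaling, filter or threshold, with edgeR or limma-voom with or without the block, with DESeq2 without the block, without any 1 library or without both libraries of number 2. DESeq2 with the replicate block called 4 members, 9 further pathway genes and 461 of all genes. Over all genes, 1 was called in the fit reported, 44 with the replicate block in edgeR, 4 with DESeq2, 2 without both libraries of number 2, and 0 to 1 when 1 library was left out (0 without Chat negative 1 or 3 or Chat positive 1 or 3). The members' median log2 change stayed between -0.157 and -0.066. The count of members differing by sample number was 20 to 22 under other scalings, filters, tools or a 10% threshold and 10 to 21 when 1 library was left out, while that of all genes, 4208 with all libraries, ran from 1368 to 5173 when 1 library was left out, with 2728 without Chat negative 1 and 2641 without Chat positive 1.

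Of 540 single-member values under alternatives, 494 kept direction and call, 4 became calls (DESeq2 with the block, given above) and 42 changed sign, in members near 0 or with a wide spread between numbers; 16 members kept their sign throughout, though not their size: without Chat negative 2 and without Chat positive 2 the log2 change was -0.325 and -0.075 for Slc2a1, -0.362 and -0.073 for Pfkp, -0.295 and -0.031 for Gpi1 and -0.275 and -0.008 for Aldoa. Without Chat positive 3 and without Chat positive 2 it was -0.564 and -0.112 for Egln1 and 0.062 and 0.276 for Bnip3, while Hk1 ran from -0.21 to -0.155 and Hk2 from -0.458 to -0.308 over all 6. Ldha turned to -0.008 with RLE scaling, -0.001 with a filter of 5 CPM, -0.008 in DESeq2 and -0.005 in DESeq2 with the block, and Pdk1 to -0.008, 0, -0.008 and -0.004 in that order and to -0.02 without both libraries of number 2. Vegfa turned to 0.013 with total counts and 0.002 with the edgeR block. Leaving out 1 library gave ranges of log2 change of -0.282 to 0.337 for Slc2a3, -0.472 to 0.05 for Pfkfb3, -0.21 to 0.029 for Tpi1, -0.092 to 0.011 for Pgk1, -0.068 to 0.087 for Ldha, -0.125 to 0.162 for Slc16a1, -0.147 to 0.031 for Mif, -0.132 to 0.115 for Pdk1, -0.495 to 0.11 for Egln3, -0.303 to 0.039 for Hif1a, -0.355 to 0.343 for Vegfa, -0.126 to 0.266 for Bnip3l, -0.319 to 0.059 for P4ha1 and -0.097 to 0.334 for Ankrd37. The cause of these changes was not tested. With 3 libraries per gate, log2 changes of the size of Hk2, about 3 times its SE, did not pass adjustment over all genes in edgeR.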
